A study of Mus musculus with 6 samples.

Results

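Mural cells, the pericytes and smooth muscle cells that wrap brain capillaries and arterioles, were followed through 10 of their genes in RNA-seq libraries of oligodendrocyte precursor cells (OPCs) from DISC1-Δ3 and wildtype mice. The genes were chosen by name, with earlier results of these data known, and all 10 were found among the 18211 genes of the table. They were Pdgfrb, Rgs5, Abcc9, Vtn, Notch3, Higd1b and Anpep for pericytes, and Acta2, Tagln and Myh11 for contractile smooth muscle. DISC1-Δ3 mice carried NG2-CreERTM with a single floxed copy of DISC1 exon 3 (DISC1 exon3 fl/+), and wildtype mice had no CreERT. Both groups were on C57BL/6 and received tamoxifen by gavage over 4 days (P4 to P7), and their OPCs were panned from the brain with an antibody to PDGFRα at P7. There were 3 libraries per genotype, with 13716619 to 16417219 reads assigned to genes. The labels do not say whether each library came from its own animal, so the p-values measure the spread between these libraries, which may be in part technical.

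Pericytes sit in the basement membrane of capillaries, where they help to form the blood-brain barrier and to stabilise young vessels. They are drawn to vessels by PDGF-B from endothelial cells, which acts on the receptor PDGFRβ, and Notch3 signalling maintains them and the smooth muscle of arteries. Smooth muscle cells add a contractile apparatus of α-actin, myosin heavy chain 11 and their regulators, switched on largely by serum response factor (SRF) and its partner myocardin. NG2, the product of Cspg4 whose promoter drives CreERT in these mice, is made by OPCs and also by pericytes.

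The labelled cell type was compared with defining markers before the mural genes were read. Pdgfra, the panning antigen, had an RPKM (reads divided by transcript length and library total) of 17.5 ± 0.503 in the wildtype and 25.9 ± 0.915 in the DISC1-Δ3 libraries (SD, n = 3 each). The microglial gene Csf1r had a wildtype mean of 1865 RPKM, which was 106.7 times that of Pdgfra, and the astrocyte gene Aldoc had 659 RPKM. Levels varied widely within each cell type, so the ratio holds for this pair of genes only. Wildtype means ran from 3.23 to 252 RPKM over the OPC markers listed further below. They ran from 106 to 3312 RPKM for microglia markers and from 50.3 to 659 RPKM for astrocyte markers. Transcripts of OPCs, microglia and astrocytes were thus all present in these libraries, with Csf1r and Aldoc above Pdgfra per transcript length. Disc1, the targeted gene, stood at a log2 fold change of -0.45 (edgeR quasi-likelihood F test, adjusted p = 0.000528), in values that do not resolve exon 3. All differences below are log2 fold changes of DISC1-Δ3 over wildtype from that test, with standard errors on the log2 scale and Benjamini-Hochberg adjustment over the 13792 tested genes, those whose RPKM reached 0.5 in no fewer than 3 libraries.

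RefSeq start regions (GRCm38.p6, 250 bases before to 50 after an annotated start) were found for 6 of the 10 members, and 4 are shown: the smooth muscle gene with the highest level, the pericyte genes with the highest levels, and Notch3, which did not pass the test. Capitals mark matches on either strand to the CArG box to which SRF binds (here 10 bases with at least 5 of the 6 inner bases A or T), to TGGGAA, the core bound by the Notch effector RBPJ, and to CTTTGA, a core bound by TCF/LEF factors.
Acta2 (chr19:34255324-34255623, minus strand): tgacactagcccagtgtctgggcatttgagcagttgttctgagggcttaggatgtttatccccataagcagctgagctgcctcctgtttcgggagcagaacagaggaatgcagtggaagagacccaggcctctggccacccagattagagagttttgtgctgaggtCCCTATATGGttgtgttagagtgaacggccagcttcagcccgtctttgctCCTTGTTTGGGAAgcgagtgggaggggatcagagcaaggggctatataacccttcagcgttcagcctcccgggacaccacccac
Rgs5 (chr1:169655251-169655550, plus strand): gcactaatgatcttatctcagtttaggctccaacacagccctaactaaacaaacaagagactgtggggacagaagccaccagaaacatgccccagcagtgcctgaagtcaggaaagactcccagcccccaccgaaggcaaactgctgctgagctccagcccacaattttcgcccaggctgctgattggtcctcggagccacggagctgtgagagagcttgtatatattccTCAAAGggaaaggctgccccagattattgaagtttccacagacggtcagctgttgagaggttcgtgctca
Vtn (chr11:78498870-78499169, plus strand): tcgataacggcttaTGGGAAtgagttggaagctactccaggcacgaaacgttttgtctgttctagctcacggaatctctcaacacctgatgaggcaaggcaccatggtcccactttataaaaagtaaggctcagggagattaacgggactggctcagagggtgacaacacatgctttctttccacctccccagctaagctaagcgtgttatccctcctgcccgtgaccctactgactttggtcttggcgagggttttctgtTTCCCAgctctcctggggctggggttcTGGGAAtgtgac
Notch3 (chr17:32166841-32167140, minus strand): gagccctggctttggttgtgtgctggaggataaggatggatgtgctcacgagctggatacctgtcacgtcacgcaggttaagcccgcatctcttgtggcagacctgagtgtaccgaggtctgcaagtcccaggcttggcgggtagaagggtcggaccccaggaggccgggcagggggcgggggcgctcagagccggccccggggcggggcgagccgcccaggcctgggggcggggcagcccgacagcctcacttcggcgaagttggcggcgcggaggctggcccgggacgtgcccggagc
Acta2 held CArG matches starting 84 and 34 bases before the start, and its TGGGAA match at 27 bases before the start overlapped the latter, whereas the start regions of the other 5 members held no CArG match. A CArG match was present in 9.98% of 32851 start regions of this length. Vtn held 3 matches to TGGGAA, a core found in 25.6% of start regions, and Rgs5 held CTTTGA on the opposite strand 20 bases before the start, a core found in 16%. No match of any of these cores was found in the windows of Notch3 or Anpep. These are matches of letters, not measured binding.

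Of the 10 mural genes, 8 rose in DISC1-Δ3 libraries, 0 fell, and Notch3 and Anpep did not pass the threshold. In all, 20.4% of tested genes were called higher and 19.5% lower (39.9% together). The members and lists were chosen with earlier results known, so these shares are given for description, here and for the lists below. All 10 members passed the RPKM filter, and all did so in the wildtype libraries as well. Their log2 fold changes had a median of 0.42, against 0.01 over all tested genes. The RPKM of 8 members did not overlap between the genotypes, each of them higher in DISC1-Δ3, as was the case for 35.9% of tested genes. Exact permutation of the 6 libraries gave each of these 8 a two-sided p = 0.1, the smallest that 3 against 3 libraries allow. RPKM is relative to the library total, which all cell types share. In bulk RNA, more cells of a type and more RNA per cell cannot be told apart, so these values do not say whether either changed.

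**Figure D1:**
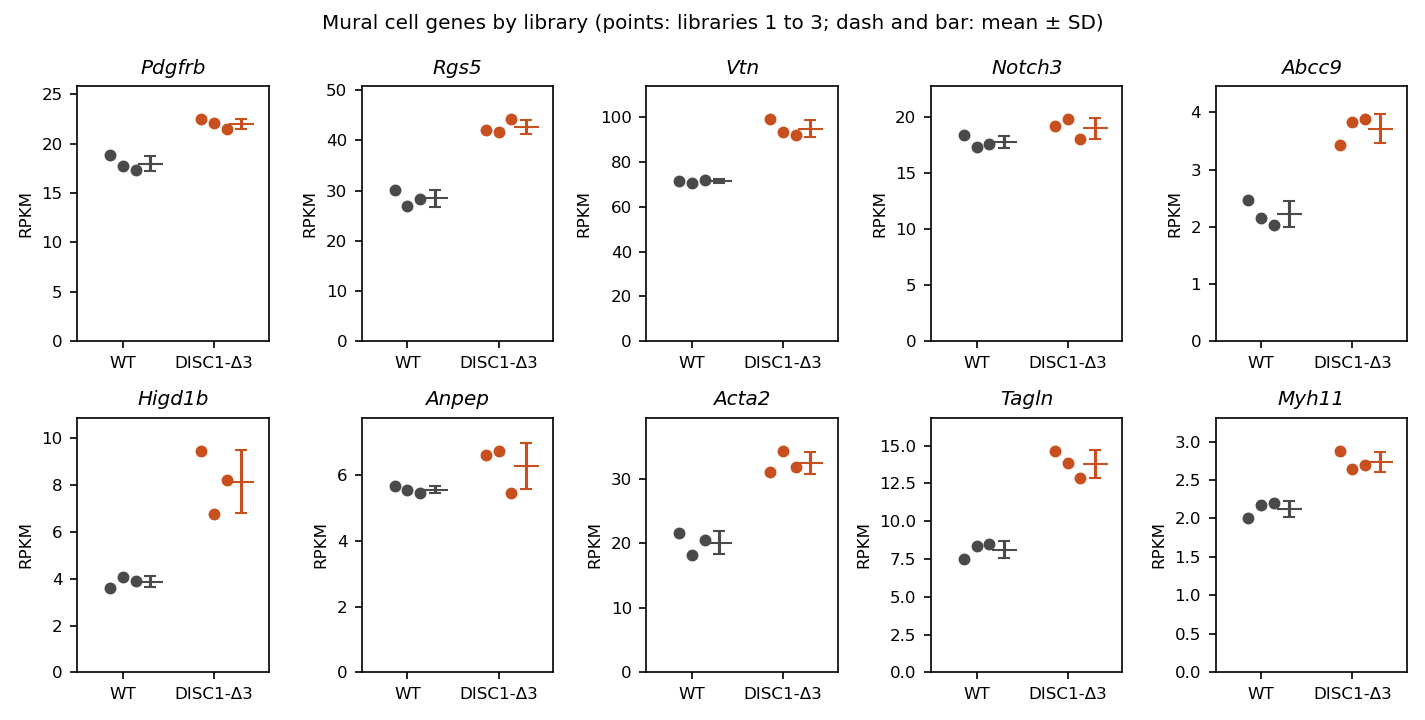
RPKM of each mural cell gene in the 3 wildtype (WT, grey) and 3 DISC1-Δ3 (orange) libraries, each panel on its own axis from 0, with points for libraries and a dash and bar for the mean ± SD. The orange points lie above every grey point for 8 genes, and overlap them for Notch3 and Anpep.

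Among the pericyte genes, the receptor and signalling genes were examined first. Pdgfrb (gene ID 18596), which encodes the receptor through which PDGF-B recruits pericytes, measured 18.85, 17.78 and 17.33 RPKM in the wildtype libraries and 22.48, 22.05 and 21.50 RPKM in the DISC1-Δ3 libraries, in the order of replicates 1 to 3. The lowest DISC1-Δ3 library was above the highest wildtype library, and the log2 fold change was 0.21 ± 0.051 (SE, adjusted p = 0.00324), the smallest of the 8 rises. Rgs5 (gene ID 19737, chromosome 1, 169655501 to 169695813), a regulator of G protein signalling that is among the most used pericyte markers, had 30.18, 26.90 and 28.22 RPKM in the wildtype and 42.06, 41.67 and 44.23 in the DISC1-Δ3 libraries. The groups were far apart relative to their spread, with 28.4 ± 1.65 against 42.7 ± 1.38 RPKM (SD, n = 3 each), and the log2 fold change of Rgs5 was 0.50 ± 0.051 (SE, adjusted p = 3.60e-07).

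Notch3 (gene ID 18131, chromosome 17, 32120820 to 32166896), the Notch receptor of mural cells, was present at a similar level but did not share the rise. Its RPKM was 18.39, 17.36 and 17.61 in the wildtype and 19.22, 19.82 and 18.01 in the DISC1-Δ3 libraries, and the groups overlapped. The log2 fold change of Notch3 was 0.02, with a 95% interval of -0.09 to 0.12 (adjusted p = 0.833), and its sign turned to -0.01 without DISC1-Δ3 replicate 1 and to -0.04 without DISC1-Δ3 replicate 2. The interval of Notch3 lay below the point estimate of every member that rose, and below the whole interval of Rgs5, Abcc9, Vtn, Acta2, Tagln, Myh11 and Higd1b. Its exons share 6.1% of their bases with a gene on the opposite strand, so a small part of its reads could belong elsewhere if strand was not kept.

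Vtn (gene ID 22370, chromosome 11, 78499120 to 78502325) encodes vitronectin, an extracellular matrix protein that pericytes secrete onto the vessel wall. It was the most abundant member per transcript length and stood above 92.7% of tested genes. Its RPKM was 71.45, 70.44 and 72.18 in the wildtype and 99.17, 93.25 and 92.15 in the DISC1-Δ3 libraries, a log2 fold change of 0.33 ± 0.048 (SE, adjusted p = 2.96e-05). The spread among the wildtype libraries was small, and no DISC1-Δ3 library came near it.

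Abcc9 (gene ID 20928, chromosome 6, 142587862 to 142702766) encodes SUR2, the regulatory subunit of the ATP-sensitive potassium channel that sets the membrane potential of pericytes. Its RPKM was 2.47, 2.15 and 2.03 in the wildtype and 3.43, 3.84 and 3.88 in the DISC1-Δ3 libraries, from 240 to 255 and from 352 to 452 reads. The groups did not overlap, and the log2 fold change was 0.67 ± 0.094 (SE, adjusted p = 1.80e-05). Kcnj8 (gene ID 16523), which encodes the pore of the same channel, lies 16247 bases from Abcc9 with 0 annotated genes between them, and was singled out after its values were seen. Kcnj8 rose from 4.16 ± 0.826 to 5.94 ± 0.988 RPKM (SD, n = 3 each), with a log2 difference of 0.44 ± 0.15 (SE, adjusted p = 0.0256). Transcripts of both subunits of the channel were thus higher.

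Higd1b (gene ID 75689, chromosome 11, 102835761 to 102844141), a gene of the hypoxia-induced domain family that marks brain pericytes, showed the largest point estimate and the fewest reads. It had 28, 38 and 39 reads in wildtype and 79, 64 and 82 in the DISC1-Δ3 libraries, which corresponded to 3.61, 4.08 and 3.88 against 9.45, 6.74 and 8.21 RPKM. The log2 fold change was 1.02 ± 0.20 (SE, adjusted p = 0.000495), and its 95% interval of 0.60 to 1.44 overlapped those of Tagln, Abcc9, Acta2 and Rgs5. Whether Higd1b rose more than these genes is therefore not shown.

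Anpep (gene ID 16790, chromosome 7, 79821803 to 79848210) encodes aminopeptidase N, also called CD13, a surface peptidase of pericytes that fibroblasts and myeloid cells make too. Its RPKM was 5.66, 5.55 and 5.46 in the wildtype and 6.62, 6.74 and 5.46 in the DISC1-Δ3 libraries. DISC1-Δ3 replicates 1 and 2 were above all wildtype libraries, but replicate 3 equalled the lowest of them. The log2 fold change was 0.11 (95% interval -0.09 to 0.32, adjusted p = 0.385), and without DISC1-Δ3 replicate 3 it was 0.21 (adjusted p = 0.0540), still short of the threshold.

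The contractile genes rose as well. Acta2 (gene ID 11475, chromosome 19, 34240336 to 34255585), which encodes smooth muscle α-actin, the main actin of arteriolar smooth muscle, had 21.63, 18.17 and 20.45 RPKM in the wildtype and 31, 34.33 and 31.86 in the DISC1-Δ3 libraries. The mean went from 20.1 ± 1.76 to 32.4 ± 1.73 RPKM (SD, n = 3 each), with a log2 difference of 0.65 ± 0.070 (SE, adjusted p = 9.01e-07). Tagln (gene ID 21345, chromosome 9, 45929628 to 45936058), which encodes the actin-binding protein transgelin (SM22α), had 7.49, 8.39 and 8.47 RPKM in the wildtype and 14.66, 13.87 and 12.83 in the DISC1-Δ3 libraries. Its groups were wide apart, with a log2 fold change of 0.68 ± 0.10 (SE, adjusted p = 3.41e-05).

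Myh11 (gene ID 17880, chromosome 16, 14194527 to 14292188), the smooth muscle myosin heavy chain and the most selective of the contractile markers, was the member with the lowest level. It had 2.01, 2.17 and 2.2 RPKM in the wildtype and 2.88, 2.64 and 2.69 in the DISC1-Δ3 libraries, without overlap, and a log2 fold change of 0.34 ± 0.097 (SE, adjusted p = 0.00939). Tagln shares 5.9% of its exon bases with Pcsk7 and 55.0% with another annotated gene, both on the opposite strand, and its deposited counts were fractional. Pcsk7 itself had 13.2 RPKM in both groups and a log2 fold change of -0.04 (adjusted p = 0.661). The other gene was not analysed here, so the values of Tagln are uncertain to that extent.

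In order of wildtype level per transcript length, the members ran from Vtn through Rgs5, Acta2, Pdgfrb, Notch3, Tagln, Anpep, Higd1b and Abcc9 to Myh11. The ranges over the 3 libraries overlapped between Acta2 and Pdgfrb, between Pdgfrb and Notch3, and between Abcc9 and Myh11. Library by library, Acta2 was above Pdgfrb in each, whereas the order within the other pairs changed between libraries. In DISC1-Δ3 libraries the order was the same except that Higd1b had a higher mean than Anpep, at 8.13 against 6.27 RPKM, with overlapping ranges. By log2 fold change the order ran from Higd1b through Tagln, Abcc9, Acta2, Rgs5, Myh11, Vtn, Pdgfrb and Anpep to Notch3, and the 95% intervals of every pair of neighbours overlapped. The members lie on 9 chromosomes, and 7 of them share no exon bases with another annotated gene.

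Additional genes of both cell types were then examined, written as lists from general knowledge but with earlier results of these data known. Of 19 tested pericyte genes outside the members, 8 rose and 0 fell, with a median log2 fold change of 0.29. This count was 5 without wildtype replicate 1, without wildtype replicate 2 or without DISC1-Δ3 replicate 2. Foxs1, a forkhead factor of pericytes, had the largest rise, 0.73 (adjusted p = 0.0193), from 1.32 ± 0.249 to 2.30 ± 0.0700 RPKM (SD, n = 3 each). Rgs4, which lies 45663 bases from Rgs5 with 0 annotated genes between them, rose by 0.69 (adjusted p = 4.85e-06), and Gja4, which encodes the gap junction protein connexin 37, by 0.49. The more abundant Cspg4, Mcam and Ndufa4l2 rose by 0.46, 0.25 and 0.35, and Cspg4 is shared with OPCs. Atp13a5, a selective pericyte marker, stood at 0.20 (adjusted p = 0.137), and Tbx18 was below the filter with 19 to 39 reads per library.

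Of 13 contractile genes outside the members, 7 rose and 0 fell, with a median of 0.39. Lmod1, a leiomodin that nucleates actin filaments, is left out of these counts because it passed the filter through the DISC1-Δ3 libraries alone (this was decided after seeing the data). Lmod1 had 13 to 30 reads per library in wildtype and 36 to 63 in DISC1-Δ3. Casq2, a calcium store protein of muscle, rose by 1.08 (adjusted p = 0.000704), and Cald1, which encodes caldesmon, by 0.48. Casq2 too had few reads, 21 to 30 per library in wildtype and 53 to 63 in DISC1-Δ3. The abundant Tpm1 (tropomyosin) and Myl9 (regulatory myosin light chain) rose by 0.43 and 0.24, but many other cell types use these genes too. Another 6 genes of this list were below the filter. These included Cnn1, which encodes the smooth muscle protein calponin, with 5 to 11 reads per library, and Myocd, which encodes myocardin, with 5 to 12.

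**Figure D2:**
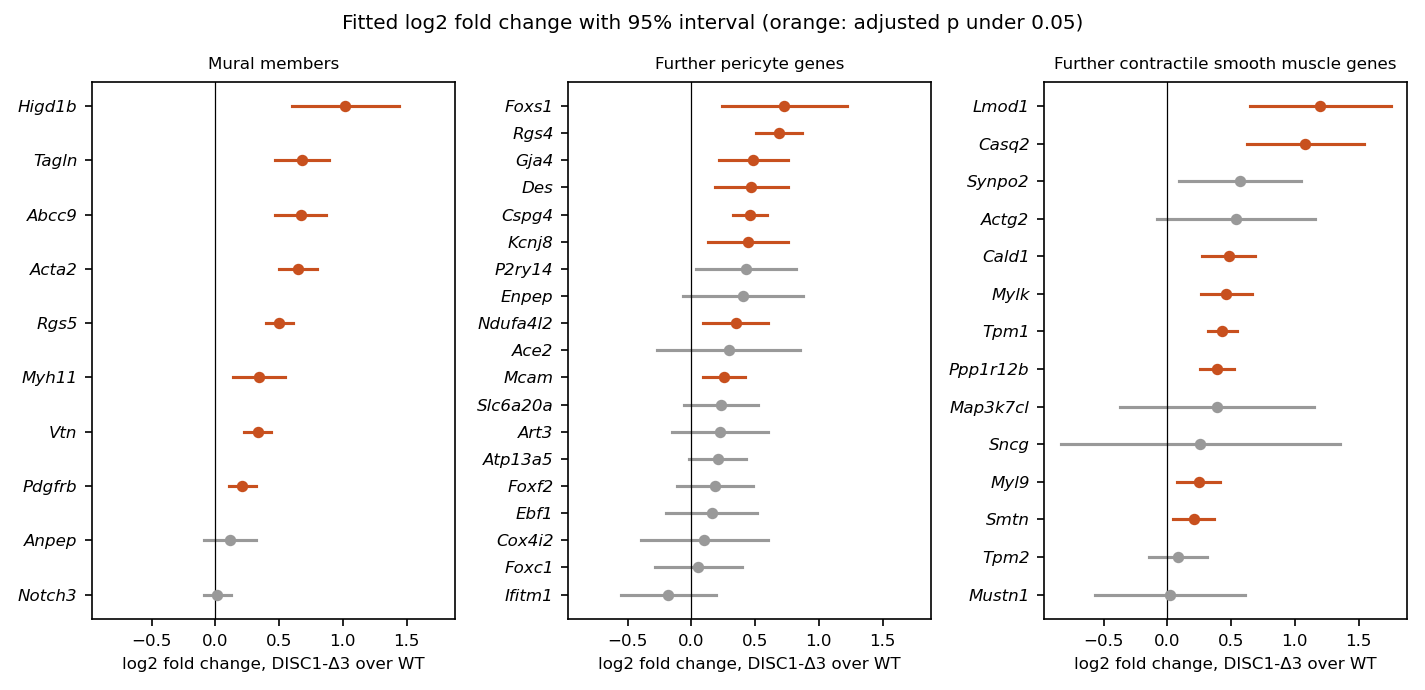
Log2 fold change of DISC1-Δ3 over wildtype (WT) with its 95% interval for the tested genes of 3 lists, the mural cell genes, other pericyte genes and other contractile genes, in orange where the adjusted p was under 0.05 and in grey otherwise. Estimates lie right of 0 for all 10 mural cell genes, for 18 of 19 other pericyte genes and for all 14 other contractile genes, among them Lmod1, which passed the filter in DISC1-Δ3 libraries alone.

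Transcriptional regulators of the contractile program moved both ways, with 6 of 12 tested genes higher, 3 lower and a median of 0.23. Srf was higher by 0.23 (adjusted p = 0.00487) and Fhl1, an SRF cofactor, by 0.36. The largest rise was that of Yap1, the Hippo pathway coactivator, at 0.68 (adjusted p = 1.49e-06), followed by Elk1 at 0.49. Mkl1, which encodes the SRF coactivator MRTF-A, had -0.21 (adjusted p = 0.0165), Elk3 had -0.27 and Elk4 -0.36. Elk4 overlapped between the groups and was not called without wildtype replicate 1, wildtype replicate 2 or DISC1-Δ3 replicate 1, nor with the replicate block (adjusted p = 0.0565). Under library totals, RPKM sums or limma 8 genes of this list were higher and 1, Elk3, was lower. In those settings 3965 to 4126 of the 13792 tested genes were called higher and 1755 to 1836 lower, against 2807 and 2691 as reported. Elk3 alone was also lower without wildtype replicate 2. Klf4, a repressor of contractile genes, was abundant and did not pass the threshold at 0.09 (adjusted p = 0.171).

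Signals that recruit or instruct mural cells also went in both directions: 7 of 23 rose, 6 fell and their median was 0.06. Over all tested genes 20.4% were called higher and 19.5% lower, with a median of 0.01. Edn1, which encodes the vasoconstrictor endothelin-1, rose from 4.81 ± 0.415 to 14.6 ± 1.01 RPKM (SD, n = 3 each), with a log2 difference of 1.52 (adjusted p = 1.40e-09). Pdgfa, a ligand of PDGFRα, rose by 0.97, and Dll4, the endothelial Notch ligand, by 0.87. In contrast, Pdgfb, the ligand of PDGFRβ, fell by 0.18 on the log2 scale (adjusted p = 0.00265), from 69.3 ± 1.54 to 63.6 ± 1.06 RPKM. The receptor Tgfbr1 fell by 0.73 and its ligand Tgfb1 by 0.51, and S1pr1 fell by 0.32. In bulk RNA the cells that made the transcripts of these signals cannot be told. Angpt1, the angiopoietin that pericytes secrete, fell by 0.57 (adjusted p = 0.00876), unlike the mural genes that rose. The Notch target Heyl, which is enriched in mural cells, stood at 0.05 (adjusted p = 0.678), beside 0.02 for Notch3. Hey1, Hey2 and Nrarp were not called either, at 0.18, -0.03 and -0.09 (adjusted p = 0.0767, 0.916 and 0.189). The Notch ligand Jag1 rose by 0.68 (adjusted p = 0.000263).

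Markers of other cell types changed too, some in the direction of the mural genes and some in the other. Their part in the result was not tested. The summed RPKM of the 10 mural genes ran from 173 to 182 in the wildtype and from 241 to 251 in the DISC1-Δ3 libraries, a ratio of means of 1.38. For OPC markers it ran from 550 to 570 and from 711 to 741, a ratio of 1.3, and 7 of 10 rose and 1, Ptprz1, fell. Neuron markers had sums of 350 to 352 and 417 to 438, a ratio of 1.22, with 6 of 8 higher and 0 lower. However, 4 were higher without DISC1-Δ3 replicate 1, and 2 were lower without DISC1-Δ3 replicate 3. Microglia markers had sums of 11722 to 11954 and 8290 to 8582, a ratio of 0.715, and all 10 fell. Astrocyte markers had sums of 1965 to 2005 and 1888 to 1906, a ratio of 0.954, with 1 of 8 higher and 6 lower. No marker of any list was at 0 in every library.

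The neighbouring cells of the vessel wall gave smaller ratios. All ratios of list sums are of RPKM without the scaling used in the fit, so they run slightly above fitted folds. On log2(RPKM + 0.1) the median log2 fold change of all tested genes was 0.09. Endothelial markers had sums of 354 to 369 in the wildtype and 413 to 428 in the DISC1-Δ3 libraries, a ratio of 1.17. Of these 15 genes 6 rose, a count that ran from 4 to 8 over the alternatives. It was 4 without wildtype replicate 2, wildtype replicate 3, DISC1-Δ3 replicate 1 or DISC1-Δ3 replicate 2. Emcn and Cldn5, which encode endomucin and the tight junction protein claudin-5, rose by 0.67 and 0.39, whereas Pecam1, the general endothelial marker CD31, was at 0.04 (adjusted p = 0.669). Vwf alone was lower, at -0.20 (adjusted p = 0.0186), and was not called without wildtype replicate 1, wildtype replicate 3 or DISC1-Δ3 replicate 2, nor under scaling by library totals or RPKM sums or in limma. Vascular fibroblast markers had sums of 56.7 to 59.7 and 66.4 to 72.3, a ratio of 1.18. Beside 20.4% of all tested genes called higher, 2 of 11 tested here rose, Islr and Col6a2. That count was 1 with wildtype replicate 3 left out, and 0 with DISC1-Δ3 replicate 1 left out or by DESeq2. It was 4 under library totals, RPKM sums or limma, where 3965 to 4126 of the 13792 tested genes were called higher. As reported, 2807 were called higher. Border macrophage markers overlapped between the genotypes, with sums of 71.4 to 74.0 and 72.4 to 76.6. Of their 6 genes 0 rose and 2 fell, and 1 fell without wildtype replicate 1, wildtype replicate 3 or DISC1-Δ3 replicate 1, by DESeq2, and under library totals, RPKM sums or limma. In the other direction, 2 rose under library totals or limma, and 1 under RPKM sums or without DISC1-Δ3 replicate 1.

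**Figure D3:**
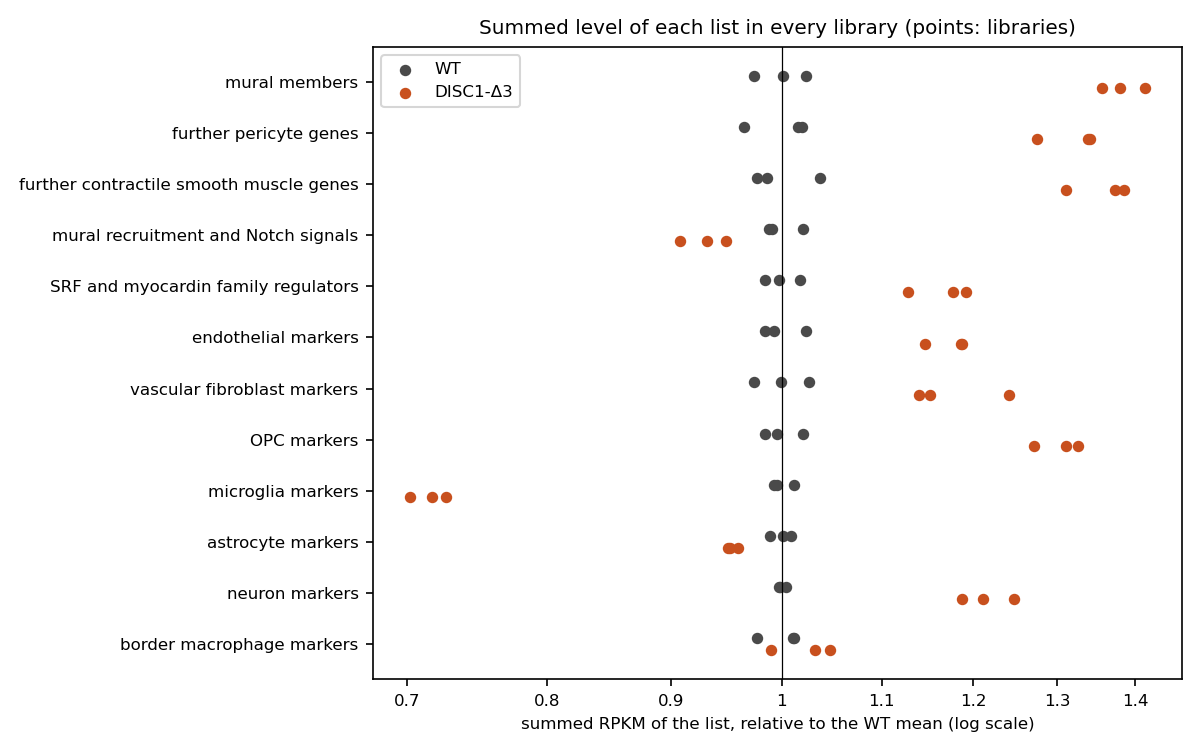
Summed RPKM of each gene list in every library, relative to the mean of the 3 wildtype (WT) libraries, on a log axis, with grey points for wildtype and orange points for DISC1-Δ3. The mural cell genes stand at a ratio of 1.38, OPC markers at 1.3, endothelial markers at 1.17 and microglia markers at 0.715. These ratios are without the scaling used in the fit.

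**Figure D4:**
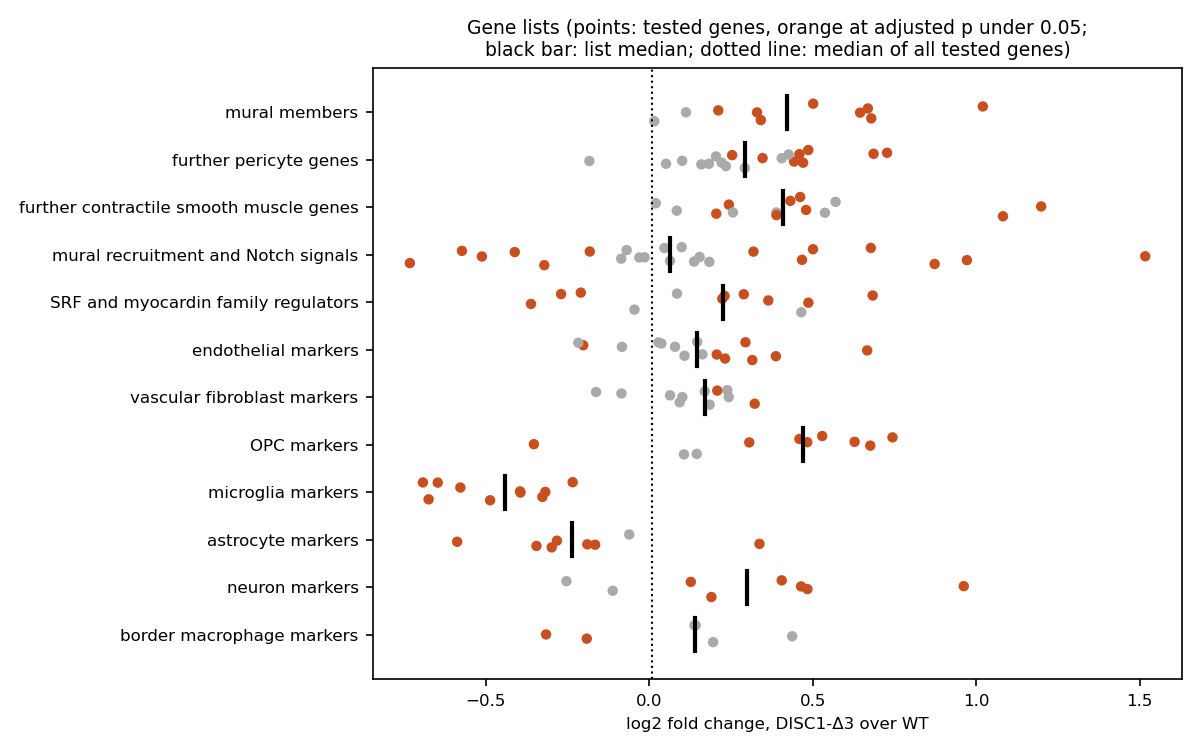
Log2 fold changes of DISC1-Δ3 over wildtype (WT) for the tested genes of each list, in orange where the adjusted p was under 0.05, with a black bar for the list's median and a dotted line for the median of all tested genes. The medians are 0.42 for the mural cell genes, 0.47 for OPC markers, 0.15 for endothelial markers and -0.44 for microglia markers.

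In each of 16 alternatives, which changed the scaling, the filter, the test or the design or left out a library, the count was 8 members higher and 0 lower. Over these alternatives Rgs5 ran from 0.46 to 0.59, Acta2 from 0.56 to 0.73, Vtn from 0.28 to 0.42 and Pdgfrb from 0.18 to 0.30. The largest adjusted p of any of the 8 was 0.0387, for Myh11 without DISC1-Δ3 replicate 1. Scaling matters for the balance over all genes, since 51.1% of called genes were higher as reported, and 69.2% and 70.0% when library totals or RPKM sums set the scale.

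**Figure D5:**
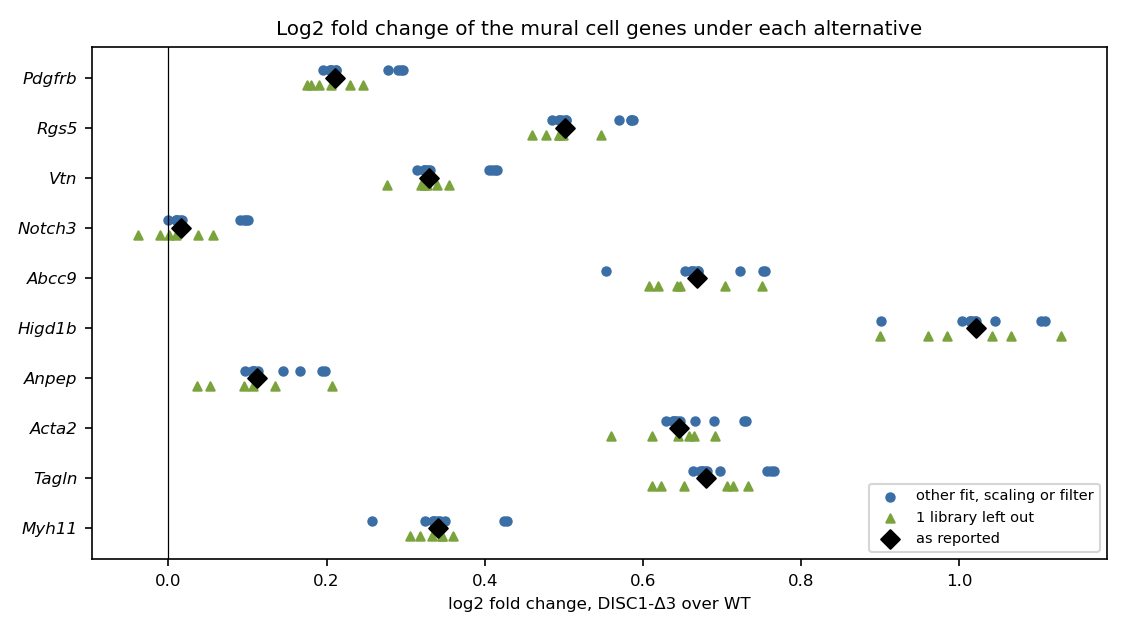
Log2 fold change of DISC1-Δ3 over wildtype (WT) for each mural cell gene as reported (black diamonds), under another fit, scaling or filter (blue circles) and with 1 library left out (green triangles). All points of 8 genes and of Anpep lie right of 0, and those of Notch3 lie on both sides, from -0.04 to 0.10.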

How the data were processed

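RNA-seq libraries of OPCs from wildtype and DISC1-Δ3 mice (3 each) held single-end reads of 50 bases. The submitters' processing notes name Bowtie2 2.2.5 and the mm10 build, while the counting tool and annotation are not given in the sources used here. The authors deposited expected counts per gene, of which 90.2% of values above 0 are whole (within 1e-06), and RPKM, the counts divided by transcript length and library total. The authors' group averages (4 columns) were left aside.

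Counts were rounded and compared with edgeR 4.0.16 (R 4.3.3), by its quasi-likelihood test with TMM scaling and genotype as the only term. TMM factors were 0.970 to 0.973 in the wildtype and 1.02 to 1.04 in the DISC1-Δ3 libraries, so fitted folds are slightly below RPKM ratios. Genes were tested where RPKM reached 0.5 in 3 libraries. P-values are two-sided, and standard errors come from the F statistic. Within a group, libraries differed by more than sampling noise, as chi-square over its degrees of freedom ran from 1.81 to 5.24, the larger values in pairs with DISC1-Δ3 replicate 3. Alternatives used DESeq2 1.42.0, limma 3.58.1 on log2(RPKM + 1) and log2(RPKM + 0.1), other scalings and filters, a replicate block, and each library left out. The fits were tested on simulated data.

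The members and lists were chosen with earlier results of these data known. From each other list, all called genes were eligible for naming where 6 or fewer, otherwise the 3 largest calls in each direction, with up to 3 genes of at least 10 RPKM. Csf1r, Kcnj8, Atp13a5, Tbx18, Cnn1, Myocd, Heyl, Hey1, Hey2, Nrarp, Jag1, Pecam1 and Pcsk7 were named after their values were seen. Positions are from RefSeq (GRCm38.p6), and exon overlaps from GENCODE M21 on the same assembly. The genes nearest in profile to Acta2 are not reported here.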

Additional observations from a re-analysis of the deposited data

How the results depend on the processing

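Over 16 alternatives the counts of members higher (8) and lower (0) did not change. The count of tested genes called ran from 4342 to 6232 with each library left out in turn, around 5498 as reported, and was 4600 by DESeq2. Of the single members, Notch3 alone changed sign, at -0.01 without DISC1-Δ3 replicate 1 and -0.0379 without DISC1-Δ3 replicate 2, and it was not called under any alternative (log2 fold change from -0.0379 to 0.0566 with a library left out, adjusted p from 0.108 to 1 over all alternatives). Anpep was not called either (adjusted p from 0.0540 to 0.837). Same-numbered libraries did not deviate together, with correlations across genes of 0.04, 0.03 and -0.03, and 3 of 6 libraries correlated best with their own number. The replicate block gave 5429 called genes, 8 members higher and 0 lower. Pericyte genes outside the members called higher ran from 5 to 10 over the alternatives, and contractile genes from 6 to 11 (8 as tested with Lmod1, 7 without it). Of all tested genes, 2149 to 4126 were called higher over these alternatives. Depth limits Higd1b, with at most 82 reads in any library, Casq2 and Foxs1, with at most 63 and 44, and the contractile genes below the filter. Intervals of the fit rest on 3 libraries per group.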

Other observations

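The genes with profiles nearest to Rgs5 over the 6 libraries were also listed, among 12314 tested genes outside the members with a mean of at least 50 reads. The distance was the root mean square difference of log2 CPM centred on each gene's mean. The nearest were Gda, Hpca, Pcdh8, Syn2 and 2010300C02Rik, at distances of 0.03 to 0.04, where the spread of Rgs5 itself was 0.26. Hpca (hippocalcin) and Syn2 (synapsin II), both known from neurons, rose from 17.3 to 26.1 and from 11.3 to 16.8 mean RPKM. With 3 libraries per genotype such a profile is mostly the genotype difference, and 0 of these 5 genes are on the vascular lists.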
